A study of Mus musculus with 8 samples.

Results

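The nuclear-encoded subunits of oxidative phosphorylation were compared between STHdh striatal cells transfected with Bcl11b and STHdh striatal cells transfected with the empty plasmid pcDNA3.1. STHdh cells are an immortalized line derived from embryonic mouse striatum, here with wild-type huntingtin, and the control plasmid carries no Bcl11b insert. Members were all probes whose deposited gene symbol begins with Nduf followed by a, b, c, s or v, with Uqcr, with Cox followed by a digit from 4 to 8, or with Atp5, or is one of the Sdh subunit symbols. This rule found 88 probes for 73 gene symbols among 25697 probes for 18120 symbols. Of these, 39 probes (32 genes) were named for complex I, 6 (3 genes) for complex II, 6 (6 genes) for complex III, 18 (16 genes) for complex IV and 19 (16 genes) for complex V. The rule used the symbols alone.

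Oxidative phosphorylation takes place at the inner mitochondrial membrane. Complex I (NADH dehydrogenase) and complex II (succinate dehydrogenase) pass electrons to ubiquinone, complex III (the cytochrome bc1 complex) passes them on to cytochrome c, and complex IV (cytochrome c oxidase) passes them to oxygen. The protons pumped by complexes I, III and IV return through complex V, ATP synthase, which makes ATP. Neurons draw most of their ATP from this pathway, and the striatum is known for its sensitivity to inhibitors of complex II. Most subunits are encoded in the nucleus, and the catalytic core of complex IV is encoded in mitochondrial DNA, so all complex IV members here are nuclear subunits around that core.

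Each group held 4 Illumina MouseRef-8 v2 arrays of RNA harvested 2 days after transfection, and the control carries the label wild-type as well. Signals are given as log2 of the quantile-normalized bead intensity, and a probe was called detected on an array at a detection p-value under 0.01. Between 10121 and 10784 probes were detected per array. Before normalization the median signal was 31.6 to 53.9 on the pcDNA3.1 arrays and 20.1 to 30.2 on the Bcl11b arrays, so the pcDNA3.1 arrays were brighter. The single Bcl11b probe stayed under the detection limit on all 8 arrays, and the level of the transfected gene was therefore not seen. Of the progenitor markers Nes, Vim, Sox2 and Pax6, 3 of 4 were detected, and of 5 mesenchymal markers 4 were detected. None of 6 striatal projection neuron markers, 2 astrocyte, 2 oligodendrocyte or 3 microglia markers measured was detected on any array. The arrays came from 4 sets of transfected cells per group, no label names a chip or a day, and p-values measure only the spread between these arrays. In bulk RNA, fewer cells of a type and less RNA per cell cannot be told apart.

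Of the 88 probes, 71 were detected on all 8 arrays, 6 on some and 11 on none. The undetected probes were those for Ndufs1, Uqcrfs1, Cox4i2, Cox6a2, Cox7a1, Cox8b, Cox8c and Atp5k and 1 further probe each for Sdhb, Sdhc and Atp5j, whose other probes were detected. Cox4i2, Cox6a2, Cox7a1, Cox8b and Cox8c are tissue-restricted isoforms of complex IV subunits, known from lung, striated muscle, brown fat or testis. The probes of their widely expressed counterparts Cox4i1, Cox6a1, Cox7a2 and Cox8a were detected on all arrays. Ndufs1 and Uqcrfs1 encode subunits that no working complex I or III lacks, so an undetected probe does not show an absent transcript. No fold change is given for an undetected probe.

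With 4 arrays against 4, no OXPHOS probe passed an adjusted p of 0.10 (limma with Benjamini-Hochberg adjustment over all probes, smallest adjusted p 0.453), where 0.981% of all probes did. At an unadjusted p of 0.05, 0 of 88 were higher and 1 was lower in Bcl11b-transfected cells, against 3.6% and 6.79% of all probes. In no OXPHOS probe did all 4 Bcl11b arrays lie above or below all 4 pcDNA3.1 arrays, whereas 2.05% of all probes did so upwards and 3.78% downwards. The fitted differences nevertheless leaned one way. Of the 88 probes, undetected ones included, 72 had a higher mean in Bcl11b-transfected cells, 12 a lower mean and 4 were at the floor on every array. Of all 25697 probes, 10008 were higher, 10434 lower and 5255 equal. At a mean log2 signal of at least 7, 65 of 75 OXPHOS probes were higher, against 4486 of 9447 among all probes. Among the 75 probes with a mean log2 signal of at least 7 over the 8 arrays, the median log2 fold change was 0.49, beside -0.02 for all 9447 probes that met this limit. This median is relative to quantile-normalized arrays: without normalization between arrays it was -0.13, while the median of all such probes was -0.68.

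**Figure D1:**
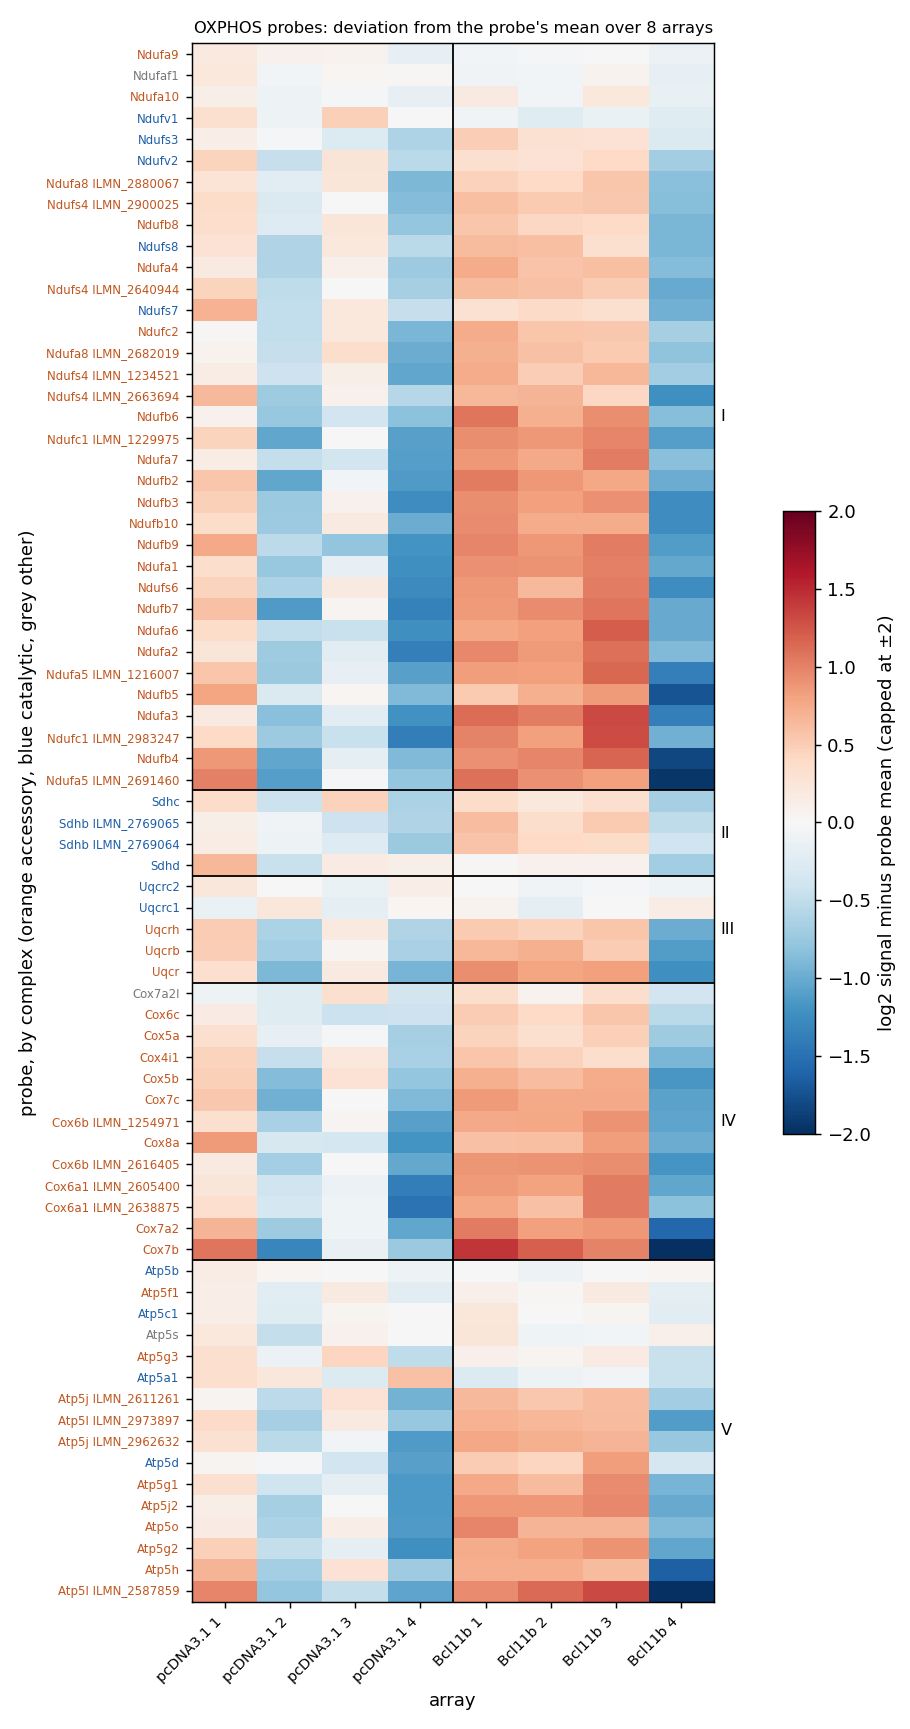
Log2 signal of 73 of the 75 OXPHOS probes with a mean log2 signal of at least 7, minus the probe's mean over the 8 arrays, with arrays in columns and probes in rows by complex (I to V) and by range. Most rows are high (red) on Bcl11b replicates 1 to 3 and low (blue) on Bcl11b replicate 4, pcDNA3.1 replicate 4 and pcDNA3.1 replicate 2.

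The arrays of each group differed among themselves by more than the groups did. For each array, the deviation of a probe from its mean over all 8 arrays was taken, and the median over the 75 probes was 0.33, -0.49, 0.01 and -0.82 on pcDNA3.1 replicates 1 to 4. On Bcl11b replicates 1 to 4 it was 0.69, 0.60, 0.63 and -0.91. Bcl11b replicate 4 therefore stood apart from the other Bcl11b arrays and beside pcDNA3.1 replicate 4. For all 9447 probes the same medians lay between -0.05 and 0.08, and Bcl11b replicate 4 was not short of detected probes, with 10644.

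This pattern ran through nearly the whole group. Bcl11b replicate 4 was the lowest Bcl11b array for 69 of the 75 probes, and pcDNA3.1 replicates 1 and 3 both lay above replicates 2 and 4 for 61 of 75. The lowest of all 8 arrays was pcDNA3.1 replicate 4 for 34 probes and Bcl11b replicate 4 for another 34. The mean of Bcl11b replicates 1 to 3 exceeded Bcl11b replicate 4 by at least 1 on the log2 scale for 55 of 75 probes (73.3%), against 869 of 9447 among all probes (9.2%). The median SD of an OXPHOS probe was 0.107 over Bcl11b replicates 1 to 3, 0.791 over all 4 Bcl11b arrays and 0.567 over the 4 pcDNA3.1 arrays. Cytosolic ribosomal proteins (symbols of Rpl or Rps and a number, without the Rps6k kinases), another large group of short, abundant messages, taken for comparison, showed the same high and low arrays at a smaller size: their 64 probes with a mean log2 signal of at least 7 had medians of 0.17, -0.29, 0.06 and -0.47 on the pcDNA3.1 arrays and 0.39, 0.40, 0.36 and -0.54 on the Bcl11b arrays. Whether RNA quality, amplification or the cells set this order was not tested.

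**Figure D2:**
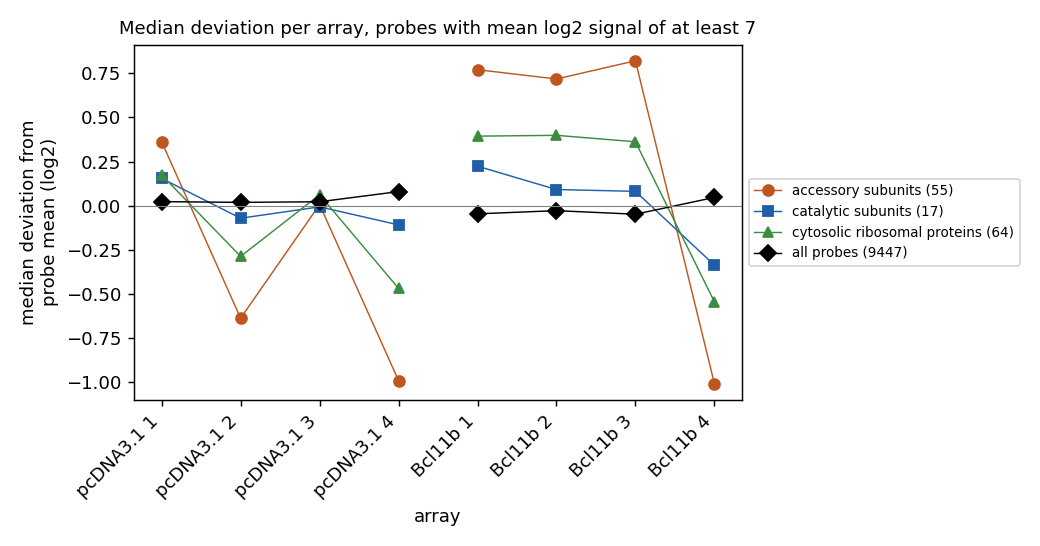
Median deviation of the log2 signal from the probe's mean over 8 arrays (vertical axis), for each array (horizontal axis), in 4 sets of probes with a mean log2 signal of at least 7. Accessory OXPHOS subunits range from -1.01 on Bcl11b replicate 4 to 0.82 on Bcl11b replicate 3, catalytic subunits from -0.34 to 0.22, and all probes stay within 0.08 of 0.

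Because 1 library decides so much, each comparison was also fitted without Bcl11b replicate 4, an array left out after its values had been seen. Then 46 of the 88 probes were higher at an unadjusted p of 0.05 and 0 lower (limma), against 4.91% and 7.48% of all probes. In 48 probes all 3 remaining Bcl11b arrays lay above all 4 pcDNA3.1 arrays, against 5.62% of all probes. No OXPHOS probe passed an adjusted p of 0.10 even so (0.969% of all probes did, limma with Benjamini-Hochberg adjustment). The smallest adjusted p was 0.106, for the Sdhb probe without a detected array, and 2 of the 46 probes were undetected ones (this Sdhb probe and Cox7a1). The 46 comprised 23 probes of complex I, 3 of complex II, 2 of complex III, 9 of complex IV and 9 of complex V. The median log2 fold change of the 75 probes was then 0.89. Without pcDNA3.1 replicate 4 it was 0.31, and it lay between 0.34 and 0.66 without any 1 of the other arrays.

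**Figure D3:**
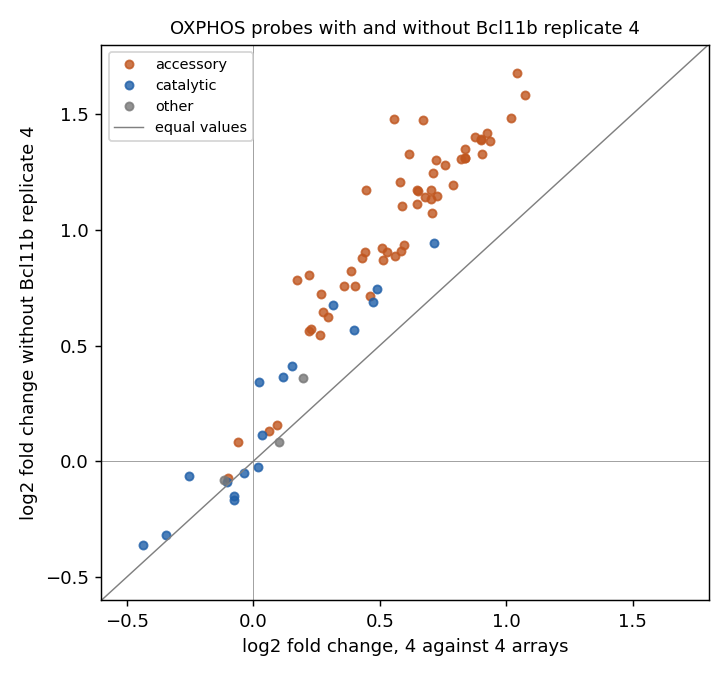
Log2 fold change of Bcl11b over pcDNA3.1, from quantile-normalized signals, for the 75 OXPHOS probes with a mean log2 signal of at least 7, with all 8 arrays (horizontal axis) and without Bcl11b replicate 4 (vertical axis). Most accessory subunits lie far above the line of equal values (median 0.60 against 1.13). The catalytic medians lie closer together (0.02 against 0.11), but single catalytic probes moved more, and the complex I catalytic median went from 0.02 to 0.34.

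The subunits did not all vary between arrays to the same extent. Members were split by role, after their values were known, into catalytic and core subunits (17 measured probes with a mean log2 signal of at least 7: the flavin, iron-sulfur and other core subunits of complex I, the complex II subunits, the complex III core proteins and the F1 head of ATP synthase) and accessory subunits (55 probes: all others, including the membrane part and stalk of ATP synthase). The remaining 3 probes were for Ndufaf1, a complex I assembly factor, Cox7a2l, a factor of respiratory supercomplexes, and Atp5s, a coupling factor now named Dmac2l. Ndufa4 was kept under complex I by its symbol, although its protein is now regarded as a part of complex IV. The median range over the 8 arrays was 2.09 for accessory and 1.10 for catalytic subunits, beside 0.849 for all probes. The gap of at least 1 between Bcl11b replicates 1 to 3 and replicate 4 was present in 51 of 55 accessory probes (92.7%) and in 4 of 17 catalytic probes (23.5%). The median log2 fold change with all 8 arrays was 0.60 for accessory and 0.02 for catalytic subunits. Since the split followed the values, it is a description and was not tested.

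The member genes lie on 19 chromosomes, and all 73 were matched to RefSeq (69 by the current symbol and 4 by an older one). A promoter window of GRCm38.p6, from 250 bases before to 50 after the gene's start, was held for 60 of them, and these windows were searched on both strands for short motifs of factors known to act on respiratory genes. The core of the nuclear respiratory factor 1 site, GCGCATGC, was in 15.0% of the OXPHOS windows and in 3.05% of all 27025 gene promoters. The ETS motif CCGGAAG, bound by GA-binding protein (nuclear respiratory factor 2), was in 28.3% against 9.93%, and the YY1 motif AAGATGGC, which contains an ATG and can coincide with a start codon, in 16.7% against 3.19%. The motif TCAAGGTCA of estrogen-related receptors was in 3.33% against 0.466%, and the GC box GGGCGG in 41.7% against 38.2%. Of 3 hexamers searched as candidate Bcl11b motifs, ACCACA was in 15.0% of OXPHOS windows against 18.9% of all, TGCTTG in 11.7% against 18.5%, and AGTGCT in 16.7% against 17.3%. The further Bcl11b motifs of the paper, AG[AT]GTG and GGATCA, were not searched. Matches of different motifs shared bases in 3 member genes. A match is a match of letters and not a measured binding site.

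The windows below show 3 genes that followed the order of the arrays closely (Ndufc1, Uqcr and Cox6b) and 1 that barely moved (Atp5b). Each window runs from 250 bases before to 30 after the start, read 5' to 3' on the gene's own strand. These 4 windows are examples, and no link between a motif and the spread over the arrays was tested. By class, the ETS motif was in 38.5% of catalytic windows and in a smaller share of accessory ones. The nuclear respiratory factor 1 core was in 15.4% of catalytic and 15.9% of accessory windows, and the GC box in 46.2% and 36.4%. The YY1 motif went the other way, at 7.69% and 20.5%. Capitals mark matches to the nuclear respiratory factor 1, ETS, YY1 or GC box motif. In Ndufc1 (chr3:51408926-51409205, minus strand) the YY1 letters begin at base 23 of the transcript. In Uqcr (chr10:80406792-80407071, minus strand) the ETS letters begin 66 bases and the nuclear respiratory factor 1 letters, read on the opposite strand, 4 bases before the start. In Cox6b (chr7:30626085-30626364, minus strand) the ETS letters, on the opposite strand, begin 28 bases before the start. In Atp5b (chr10:128083057-128083336, plus strand) GC boxes begin 199 and 45 bases before the start.
Ndufc1: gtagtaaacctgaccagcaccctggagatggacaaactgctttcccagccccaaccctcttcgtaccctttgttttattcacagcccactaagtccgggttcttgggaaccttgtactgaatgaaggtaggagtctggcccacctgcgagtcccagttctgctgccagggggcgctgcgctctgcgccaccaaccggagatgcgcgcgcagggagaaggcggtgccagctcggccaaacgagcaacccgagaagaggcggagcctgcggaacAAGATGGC
Uqcr: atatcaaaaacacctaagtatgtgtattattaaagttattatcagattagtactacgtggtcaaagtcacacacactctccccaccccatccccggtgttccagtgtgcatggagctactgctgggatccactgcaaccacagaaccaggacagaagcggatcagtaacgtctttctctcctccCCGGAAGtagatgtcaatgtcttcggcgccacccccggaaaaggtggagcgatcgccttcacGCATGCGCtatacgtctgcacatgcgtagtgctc
Cox6b: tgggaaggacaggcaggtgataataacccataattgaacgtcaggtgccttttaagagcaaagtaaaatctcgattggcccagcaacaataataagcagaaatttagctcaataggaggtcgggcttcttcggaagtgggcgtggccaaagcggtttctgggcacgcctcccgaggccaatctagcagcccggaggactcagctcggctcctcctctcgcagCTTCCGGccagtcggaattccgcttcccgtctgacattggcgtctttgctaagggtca
Atp5b: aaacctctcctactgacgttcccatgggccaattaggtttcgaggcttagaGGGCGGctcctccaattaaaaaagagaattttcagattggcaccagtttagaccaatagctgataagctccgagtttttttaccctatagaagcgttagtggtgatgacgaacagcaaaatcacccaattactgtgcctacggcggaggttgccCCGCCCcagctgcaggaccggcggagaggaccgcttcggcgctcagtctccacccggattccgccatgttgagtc

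In complex I, the median log2 fold change was 0.53 over 37 probes (0.61 over 29 accessory and 0.02 over 7 catalytic ones). It turned to -0.13 without normalization between arrays, where all probes with a mean log2 signal of at least 7 had a median of -0.68. It was 0.34 without pcDNA3.1 replicate 4 and 0.91 without Bcl11b replicate 4. Of the 39 complex I probes, 33 had a higher mean in Bcl11b-transfected cells, against 10008 of all 25697 probes. At an unadjusted p of 0.05, 0 of them were higher (limma), against 3.6% of all probes. Ndufc1 (ILMN_2983247), a small membrane-arm subunit, had the largest difference among complex I probes detected on all arrays. Its log2 signal was 10.97, 9.84, 10.13 and 9.18 on pcDNA3.1 replicates 1 to 4 and 11.56, 11.39, 11.87 and 9.61 on Bcl11b replicates 1 to 4. Bcl11b replicates 1 to 3 lay above every pcDNA3.1 array and replicate 4 below 3 of them. The log2 fold change was 1.08 (SE 0.61, n = 4 and 4 arrays, adjusted p = 0.663 from limma). Without Bcl11b replicate 4 it was 1.58 (SE 0.44, adjusted p = 0.253 from limma). The second Ndufc1 probe (ILMN_1229975) gave 0.84 and, without that array, 1.35.

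Ndufv1, the flavoprotein that binds NADH at the entry of complex I, was the only member past the unadjusted threshold. Its log2 signal was 13.17, 12.75, 13.32 and 12.86 on the pcDNA3.1 arrays and 12.79, 12.61, 12.72 and 12.61 on the Bcl11b arrays. The groups overlapped, since pcDNA3.1 replicate 2 lay below Bcl11b replicate 1, and Bcl11b replicate 4 was in place among the Bcl11b arrays. The log2 fold change was -0.34 (SE 0.14, 0.787-fold; limma, unadjusted p = 0.0415 and adjusted p = 0.453). Without Bcl11b replicate 4 it was -0.32, with an unadjusted p of 0.0933 from limma. The threshold was also missed without pcDNA3.1 replicate 1 or 3 (-0.305 and -0.249), without any 1 of the other Bcl11b arrays (-0.37 to -0.32), with the lowest signal shifted to 1 (unadjusted p = 0.0662 from limma) and among probes detected on at least 4 arrays (unadjusted p = 0.0556 from limma). With division by the array median in place of quantile normalization the log2 fold change shrank to -0.04 (unadjusted p = 0.848 from limma).

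Ndufs7, an iron-sulfur subunit, had a log2 fold change of 0.02 (SE 0.42) and followed the order of the arrays, with 13.17, 11.98, 12.69 and 12.02 on the pcDNA3.1 arrays and 12.78, 12.85, 12.79 and 11.52 on the Bcl11b arrays. Ndufs8, Ndufv2 and Ndufs3, further iron-sulfur or core subunits, stood at 0.32, 0.15 and 0.40. Of the catalytic complex I members, Ndufs3 passed the unadjusted threshold without Bcl11b replicate 4, at 0.57 (limma, adjusted p = 0.330).

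Of the accessory complex I subunits, Ndufa3 (1.04), Ndufa2 (1.02), Ndufb6 (0.94), Ndufb7 (0.92), Ndufa7 (0.90), Ndufa1 (0.90) and Ndufa6 (0.90) had the next largest log2 fold changes, none with an adjusted p under 0.60 from limma. Ndufb6 had log2 signals of 8.84, 7.98, 8.37 and 7.93 on the pcDNA3.1 arrays and 9.82, 9.47, 9.67 and 7.90 on the Bcl11b arrays. Without the last array its log2 fold change was 1.38 (SE 0.26), at an adjusted p of 0.133 in limma, the lowest among detected members. At the other end, Ndufa9 and Ndufa10, accessory subunits of larger size, hardly varied, with ranges over the 8 arrays of 0.361 and 0.373 and log2 fold changes of -0.10 and 0.09. The 4 probes of Ndufs4, an accessory subunit needed for complex I assembly, leaned the same way. Their log2 fold changes were 0.27, 0.36, 0.40 and 0.60 (SE 0.54, 0.45, 0.42 and 0.42). The 2 probes each of Ndufa5 (0.72 and 0.45) and Ndufa8 (0.30 and 0.51) did so too. Probes of a gene read the same RNA on the same arrays, so they are not independent of each other.

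**Figure D4:**
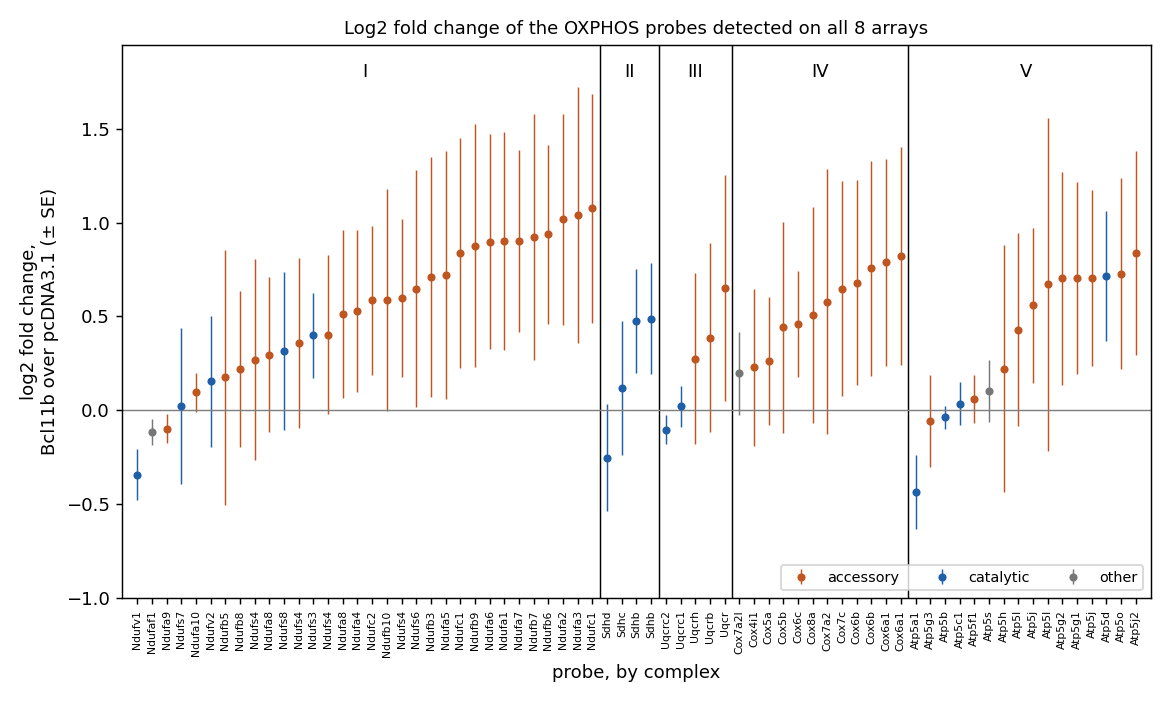
Log2 fold change of Bcl11b over pcDNA3.1 with its standard error from limma (vertical axis) for 69 of the 71 OXPHOS probes detected on all 8 arrays (horizontal axis, by complex I to V and by size), for quantile-normalized signals. Values run from -0.44 (Atp5a1) to 1.08 (Ndufc1), accessory subunits have both the larger values and the wider errors, and no probe passes an adjusted p of 0.10.

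Complex II had 4 detected probes with a median log2 fold change of 0.30 (-0.34 without normalization between arrays), and its Sdha subunit was not analysed here. Sdhb, the iron-sulfur subunit (ILMN_2769065), had log2 signals of 11.32, 11.13, 10.78 and 10.59 on the pcDNA3.1 arrays. On the Bcl11b arrays they were 11.81, 11.55, 11.72 and 10.68. Bcl11b replicates 1 to 3 were above every pcDNA3.1 array, replicate 4 was not, and the log2 fold change was 0.49 (SE 0.30, adjusted p = 0.687 from limma). A second Sdhb probe (ILMN_2769064) gave 0.48. Without Bcl11b replicate 4 they gave 0.74 and 0.69, with adjusted p of 0.244 and 0.311 from limma.

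The membrane anchors of complex II had lower log2 fold changes than these Sdhb probes, and this contrast was not tested. Bcl11b replicate 4 lay below the mean of Bcl11b replicates 1 to 3 by 0.97 in Sdhc and 0.77 in Sdhd. In the Sdhb probes it did so by 1.01 and 0.84. Sdhc (ILMN_2594149) had log2 signals of 11.58, 10.79, 11.69 and 10.59 on the pcDNA3.1 arrays and 11.59, 11.43, 11.56 and 10.55 on the Bcl11b arrays, so the 2 brightest pcDNA3.1 arrays matched the 3 brightest Bcl11b arrays. Its log2 fold change was 0.12 (SE 0.36), -0.51 without normalization between arrays. Sdhd had log2 signals of 10.53, 9.43, 10.03 and 9.99 on the pcDNA3.1 arrays and 9.89, 9.96, 9.95 and 9.17 on the Bcl11b arrays. Its log2 fold change was -0.25 (SE 0.29, adjusted p = 0.865 from limma) and -0.06 without Bcl11b replicate 4. For both anchors the difference was smaller than its standard error.

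In complex III, the core proteins had lower log2 fold changes than the small subunits, and this contrast was not tested. Uqcrc2, a core protein, had log2 signals of 13.26, 13.02, 12.90 and 13.17 on the pcDNA3.1 arrays and 13.03, 12.97, 13.00 and 12.94 on the Bcl11b arrays, a log2 fold change of -0.10 (SE 0.08) that turned to 0.23 with scaling by array medians in place of quantile normalization. Uqcrc1, the other core protein, stood at 0.02 (SE 0.11). Uqcr (now Uqcr11), a small subunit, had log2 signals of 12.69, 11.45, 12.54 and 11.43 on the pcDNA3.1 arrays and 13.28, 13.14, 13.18 and 11.12 on the Bcl11b arrays. Bcl11b replicate 4 was the lowest of all 8. The log2 fold change was 0.65 (SE 0.60, adjusted p = 0.802 from limma) and 1.17 without that array (SE 0.39, adjusted p = 0.322 from limma). The other small subunits Uqcrb and Uqcrh stood at 0.39 (SE 0.50) and 0.27 (SE 0.46) with the same order of arrays.

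**Figure D5:**
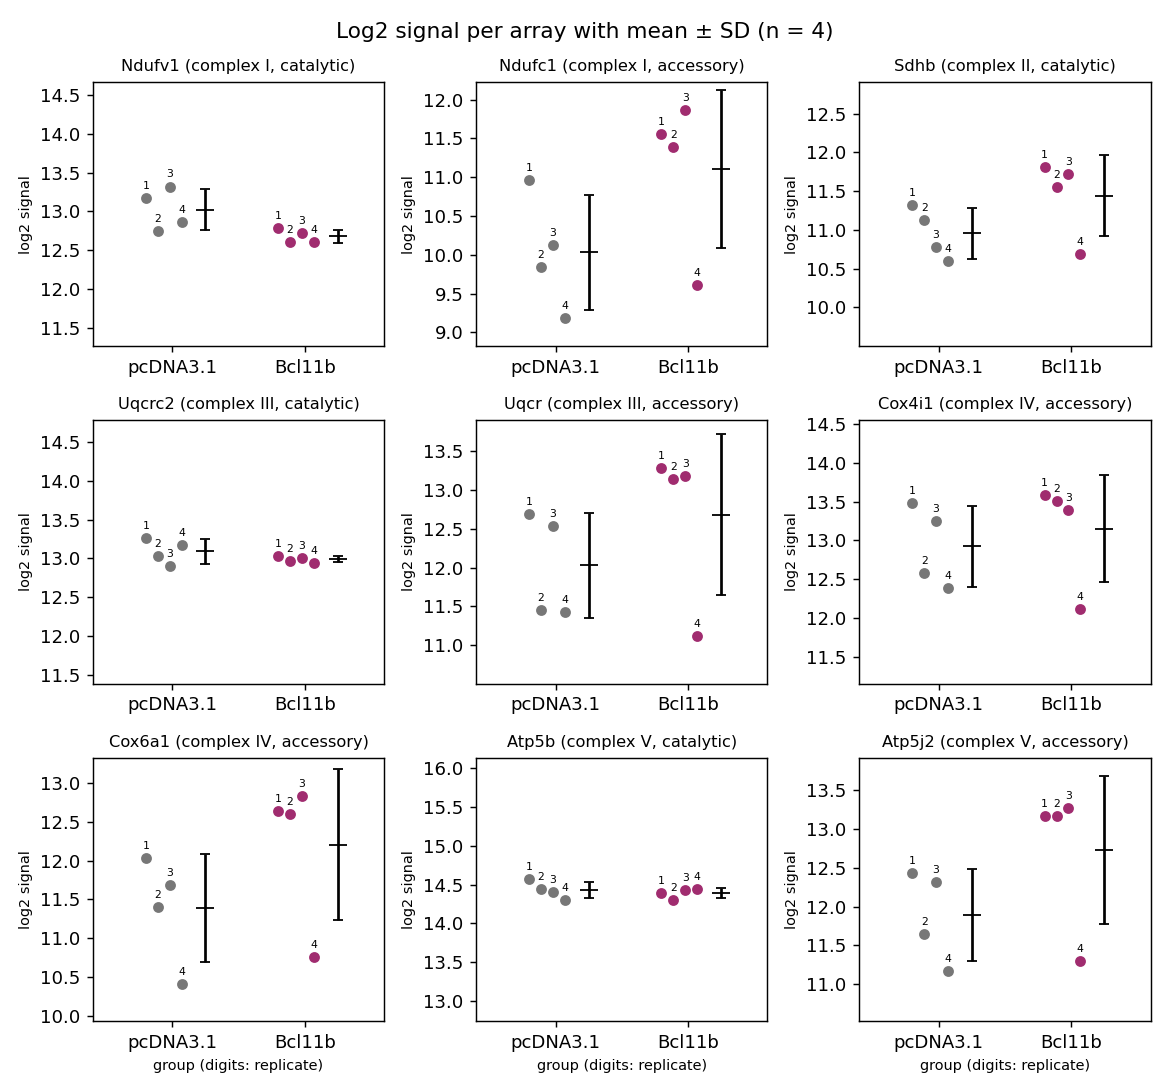
Log2 signal (vertical axis) of 9 OXPHOS probes on each array, by group (horizontal axis), with digits giving the replicate and bars the mean and SD of the 4 arrays. All panels span the same log2 range, and Bcl11b replicate 4 lies below the mean of Bcl11b replicates 1 to 3 by 1.01 or more in Ndufc1, Sdhb, Uqcr, Cox4i1, Cox6a1 and Atp5j2, and within 0.10 of it in Ndufv1, Uqcrc2 and Atp5b.

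All 12 complex IV probes detected on every array had a positive log2 fold change, with none past the unadjusted threshold. Of the 13 probes with a mean log2 signal of at least 7, 13 were higher, against 4486 of 9447 among all such probes. Their median was 0.56. Without normalization between arrays it was 0.02, beside -0.68 for all such probes. Cox6a1, the widely expressed isoform of subunit VIa, had the largest differences. Its probe ILMN_2605400 had log2 signals of 12.04, 11.40, 11.68 and 10.41 on the pcDNA3.1 arrays and 12.64, 12.60, 12.84 and 10.75 on the Bcl11b arrays. Replicate 4 was the lowest array of either group. The log2 fold change was 0.82 (SE 0.58, adjusted p = 0.758 from limma), and 0.79 for the second probe (ILMN_2638875). Without Bcl11b replicate 4 they were 1.31 and 1.19, with adjusted p of 0.292 and 0.386 from limma.

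Cox6b (now Cox6b1), which links the monomers of cytochrome c oxidase, had 2 probes at 0.76 and 0.68, and 1.28 and 1.14 without Bcl11b replicate 4. Cox7a2 and Cox8a, small membrane subunits, stood at 0.58 (SE 0.71) and 0.51 (SE 0.58). Cox4i1, the largest nuclear subunit, had log2 signals of 13.48, 12.58, 13.25 and 12.38 on the pcDNA3.1 arrays and 13.58, 13.50, 13.39 and 12.12 on the Bcl11b arrays. Its log2 fold change was 0.23 (SE 0.42, adjusted p = 1 from limma), since pcDNA3.1 replicates 1 and 3 came close to Bcl11b replicates 1 to 3. Without normalization between arrays Cox4i1, Cox7a2 and Cox7a2l turned to -0.15, -0.15 and -0.45, beside a median of -0.68 for all probes with a mean log2 signal of at least 7. Cox7a2l stood lowest of the complex IV probes detected on all arrays, at 0.20 (SE 0.22).

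In ATP synthase, the spread over the arrays differed from subunit to subunit, within the F1 head as within the membrane part. Atp5b, the catalytic beta subunit, had log2 signals of 14.57, 14.45, 14.41 and 14.30 on the pcDNA3.1 arrays and 14.40, 14.30, 14.43 and 14.45 on the Bcl11b arrays, the narrowest range of any detected member (0.263). Its log2 fold change was -0.04, with a 95% interval from -0.18 to 0.11. Atp5c1, the gamma subunit of the rotor, stood at 0.04 (SE 0.12). Atp5a1, the alpha subunit, had log2 signals of 11.86, 11.74, 11.24 and 12.09 on the pcDNA3.1 arrays and 11.23, 11.42, 11.46 and 11.06 on the Bcl11b arrays. The log2 fold change was -0.44 (SE 0.20, 0.739-fold), at an unadjusted p of 0.065 and an adjusted p of 0.524 in limma, and -0.36 without Bcl11b replicate 4. Without pcDNA3.1 replicate 3 it passed the unadjusted threshold, at -0.60 (unadjusted p = 0.00539 and adjusted p = 0.261 from limma). Atp5d, the delta subunit, went with the accessory subunits (0.71, and 0.94 without that array, unadjusted p = 0.0266 from limma), with a range of 1.92. Atp5e, the epsilon subunit, was detected on 3 arrays of each group, lay under the mean of 7 and had a range of 3.75, with a log2 fold change of 0.60 (SE 1.14). In the membrane part and stalk, Atp5f1 and Atp5g3 had narrow ranges, of 0.412 and 0.927. Over the 4 F1 probes with a mean log2 signal of at least 7 the median was -0.0011, and over 11 probes of the membrane part and stalk 0.67.

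Atp5j2, a small subunit of the membrane part, had log2 signals of 12.44, 11.64, 12.32 and 11.17 on the pcDNA3.1 arrays and 13.17, 13.17, 13.27 and 11.30 on the Bcl11b arrays. Bcl11b replicates 1 to 3 lay close together and above every pcDNA3.1 array, and replicate 4 lay below 3 of the 4. The log2 fold change was 0.84 (SE 0.54, adjusted p = 0.717 from limma) and 1.31 without Bcl11b replicate 4 (SE 0.34, adjusted p = 0.235 from limma).

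The c ring of ATP synthase is encoded by Atp5g1, Atp5g2 and Atp5g3, whose mature proteins are the same. Atp5g1 and Atp5g2 both stood at 0.70, and at 1.13 and 1.17 without Bcl11b replicate 4. Atp5g3 had log2 signals of 14.26, 13.82, 14.36 and 13.44 on the pcDNA3.1 arrays and 14.04, 14.00, 14.10 and 13.50 on the Bcl11b arrays. Its log2 fold change was -0.06 (SE 0.25), which turned to 0.08 without Bcl11b replicate 4 and to 0.59 with scaling by array medians. No difference between the c-subunit genes was tested.

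Other mitochondrial genes were taken in lists written with earlier results of these data known. Of 21 probes for 16 Krebs cycle genes, 0 were higher and 4 lower at an unadjusted p of 0.05, against 3.6% and 6.79% of all probes, and 0 passed the adjusted threshold (limma). Fh1 (fumarase) fell from 11.61 ± 0.08 to 11.32 ± 0.11 (SD, n = 4 arrays each) at the unadjusted threshold only, and its groups did not overlap (adjusted p = 0.184 from limma). Idh3b and Dlat, of isocitrate dehydrogenase and of the pyruvate dehydrogenase complex, stood at -0.31 and -0.27, again without overlap of the groups, as 3.78% of all probes did downwards. The fourth was Sucla2, whose probe had no detected array. Among the 18 Krebs cycle probes with a mean log2 signal of at least 7, the gap of at least 1 between Bcl11b replicates 1 to 3 and replicate 4 was present in 0, and the median range over the 8 arrays was 0.565.

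Of 15 probes for 8 electron carriers and dehydrogenases beside the chain, 0 were higher and 2 lower at an unadjusted p of 0.05 (limma), against 3.6% and 6.79% of all probes. These were a probe of Gpd2, the mitochondrial glycerol-3-phosphate dehydrogenase (ILMN_1215797, -0.44, overlapping groups), and Sqrdl, sulfide:quinone oxidoreductase. The other Gpd2 probe (ILMN_1247257), also detected on all arrays, stood at -0.07 (unadjusted p = 0.733 from limma). Sqrdl was detected on the 4 pcDNA3.1 arrays and on 0 Bcl11b arrays, at least 1.29-fold lower (adjusted p = 0.279 from limma). Of 20 probes for 14 assembly factors, 1 was higher, where 3.6% of all probes were, for Atpaf2, an F1 assembly factor (0.33, adjusted p = 0.289 from limma). Cox17, a small copper chaperone of complex IV, followed the order of the arrays, with 11.25, 10.06, 10.73 and 9.70 on the pcDNA3.1 arrays and 11.91, 11.81, 11.92 and 9.86 on the Bcl11b arrays.

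Among 9 probes for nucleotide and phosphate exchange genes, 1 passed the adjusted threshold, against 0.981% of all probes. Ckmt1, the mitochondrial creatine kinase that moves ATP out as phosphocreatine, had log2 signals of 6.17, 5.35, 5.44 and 6.16 on the pcDNA3.1 arrays, none of them detected, and 8.51, 8.46, 8.44 and 7.66 on the Bcl11b arrays, all detected. With Bcl11b it was at least 3.85-fold higher (limma with Benjamini-Hochberg adjustment, adjusted p = 0.0364), taking the dimmest detected signal of each pcDNA3.1 array as its level there. The call was kept without Bcl11b replicate 4 (adjusted p = 0.0398 from limma) and lost with the replicate number as a block. Vdac2, a porin of the outer membrane, was at -0.26 with overlapping groups (unadjusted p = 0.0207 from limma).

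Of 21 probes for 16 regulators of mitochondrial gene expression, 2 were higher and 1 lower at an unadjusted p of 0.05, against 3.6% and 6.79% of all probes, and 0 passed the adjusted threshold (limma). The 2 were the probes of Gabpb1, the beta subunit of GA-binding protein, whose ETS motif was searched above. Gabpb1 (ILMN_2646380) had log2 signals of 8.53, 8.96, 8.72 and 8.91 on the pcDNA3.1 arrays and 9.38, 9.30, 9.17 and 9.38 on the Bcl11b arrays. The groups did not overlap, as in 2.05% of all probes upwards, Bcl11b replicate 4 was not low, and the log2 fold change was 0.53 (SE 0.11, adjusted p = 0.150 from limma), with 0.54 for the other probe. The alpha subunit Gabpa (ILMN_1252392), Nrf1 and Tfam, the mitochondrial transcription factor, stood at 0.27, -0.06 and 0.05, with adjusted p of 0.724, 1 and 1 from limma. This Gabpa probe stood at 0.10 without Bcl11b replicate 4. Another Gabpa probe detected on all arrays (ILMN_2758120) stood at 0.13 (SE 0.36). Polrmt, the mitochondrial RNA polymerase, was lower at the unadjusted threshold (-0.40, adjusted p = 0.450 from limma).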

How the data were processed

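RNA from 4 pcDNA3.1-transfected and 4 Bcl11b-transfected STHdh cell samples was measured on Illumina MouseRef-8 v2 arrays. The authors deposited 1 average bead intensity per probe and array, background-subtracted in GenomeStudio and not normalized between arrays, and a detection p-value per probe. Groups and replicate numbers came from the sample labels. Members and gene lists were chosen with earlier results of these data known.

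After quantile normalization and a floor of 1, log2 intensities were fitted with limma 3.58.1 (lmFit, eBayes) in R 4.3.3 over 25697 probes without covariates, with Benjamini-Hochberg adjustment. Thresholds were an adjusted p of 0.10 and an unadjusted p of 0.05. A probe was detected at a detection p-value under 0.01, and a median log2 fold change used probes with a mean log2 signal of at least 7. The floor of 1 sets the size of differences of dim probes. The number of arrays limits the precision. A bound for a probe undetected in 1 group took the dimmest detected signal of each of that group's arrays. The fit was tested on simulated data.

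Named members were those past the adjusted threshold, those past the unadjusted threshold without overlap, and the highest and lowest log2 fold change in each complex among probes detected on all arrays. Named too were the complex II genes, the tissue isoform families, and genes whose probes disagreed in sign with at least 1 past the unadjusted threshold. Further genes were named after their values were seen. Alternatives were no normalization, scaling by array medians, neqc, an added offset of 16, a shift of the lowest signal to 1, only probes detected on at least 4 arrays, a replicate block, limma-trend (robust eBayes), array weights, a single probe for each symbol, and each array left out. Promoters were taken from RefSeq (GRCm38.p6). The probes of 1 complex I member entered every fit, count and median and are not reported by name or drawn in the plots that name probes.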

Additional observations from a re-analysis of the deposited data

Results flagged for a closer look

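Of 58 groups of 4 arrays examined, 18 held 1 array far from the other 3, and in each it was Bcl11b replicate 4 on the low side. Chance gives about 1 in 20 for a single group, but these groups share the same 8 arrays and overlapping probes, many were named after their values were seen, and their number cannot be set against that share. Over the 75 OXPHOS probes with a mean log2 signal of at least 7 this array lay far below the other Bcl11b arrays in 51, against 801 of 9447 among all probes (8.48%).

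In ATP synthase the log2 signal of Bcl11b replicate 4 was 10.83 for Atp5g1, 9.84 for Atp5g2, 13.50 for Atp5g3 and 11.30 for Atp5j2. In complex IV it was 12.12 for Cox4i1, 10.75 for Cox6a1 (ILMN_2605400), 10.45 and 11.04 for the 2 probes of Cox6b, 6.48 for Cox7a2 and 11.33 for Cox8a. It was 10.55 for Sdhc, 9.17 for Sdhd and 11.12 for Uqcr. The median deviation of this array from the probe means was -0.915 over all OXPHOS probes, -0.915 in complex I, -0.987 in complex III, -1.04 in complex IV and -0.725 in complex V. The part of RNA quality, amplification or the cells in these values was not tested.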

How the results depend on the processing

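No OXPHOS probe passed an adjusted p of 0.10 in limma under any of the alternatives run. Among all 25697 probes, 252 passed it in the main fit, 57 without normalization between arrays and 642 with arrayWeights. Shares of all probes at an unadjusted p of 0.05 are given above only for the main fit and the fit without Bcl11b replicate 4. The member counts under the other alternatives therefore have no such share beside them. The count higher at an unadjusted p of 0.05 (0 with all arrays) was 3 with division by the array median, 5 with the lowest signal shifted to 1, 2 among probes detected on at least 4 arrays, 1 with limma-trend and 36 with arrayWeights, which gave Bcl11b replicate 4 the lowest weight (0.414), and it ran from 0 to 46 when 1 array was left out, with 46 without Bcl11b replicate 4 and 1 without pcDNA3.1 replicate 2. The count lower (1, Ndufv1) was 8 without normalization between arrays, 0 with division by the median, 2 with neqc, 0 with the shift, 0 among probes detected on at least 4 arrays, and 0 to 2 with 1 array left out, with 2 without pcDNA3.1 replicate 3 (Atp5a1 and Uqcrc2, no longer Ndufv1), 2 without pcDNA3.1 replicate 4 (Ndufv1 and Ndufa9) and 0 without pcDNA3.1 replicate 1 or any 1 Bcl11b array. Without normalization the median log2 fold change turned to -0.126 over all OXPHOS probes, -0.126 in complex I, -0.337 in complex II, -0.227 in complex III and -0.0847 in complex V, and was 0.0243 in complex IV. The median of all probes with a mean log2 signal of at least 7 was -0.677 in that fit. The OXPHOS median lay 0.551 above that of all such probes there, and 0.509 above it in the main fit. With 1 array left out the OXPHOS median log2 fold change stayed above 0, from 0.314 to 0.887 over all OXPHOS probes, 0.337 to 0.909 in complex I, 0.12 to 0.525 in II, 0.108 to 0.646 in III, 0.35 to 1.11 in IV and 0.301 to 0.882 in V, each highest without Bcl11b replicate 4. The lowest came without pcDNA3.1 replicate 4 over all probes and in complexes I, II and V, without pcDNA3.1 replicate 2 in III and without Bcl11b replicate 3 in IV. The cause was not tested in any of these.

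Among single probes, Atp5g3 turned to 0.59 with division by the median, 0.0835 with arrayWeights, and ran from -0.242 to 0.0827 with 1 array left out, and Uqcrc2 to 0.23 with division by the median. Without normalization Cox4i1 and Cox7a2 turned to -0.15, Cox7a2l to -0.45, Sdhb to -0.13 and -0.16 and Sdhc to -0.51, and Sdhc ran from -0.0735 to 0.364 with 1 array left out. In the fit without normalization the median of all probes with a mean log2 signal of at least 7 was -0.677.

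Whether the replicate numbers pair the arrays is not known, since no label says so. Deviations of same-numbered arrays correlated at 0.675, -0.653, 0.187 and 0.691 over probes with a mean log2 signal of at least 7, which does not settle it. With the number as a replicate block, 15 OXPHOS probes were higher and 1 lower at an unadjusted p of 0.05 (limma). The share of all probes called so in this fit is not given, so these counts cannot be set against it. No OXPHOS probe passed the adjusted threshold in this fit, where 45 of 25697 probes did, and 0 exchange genes did (1, Ckmt1, without the block).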
